A study of Homo sapiens with 10 samples.

Results

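Ubiquitin-conjugating enzymes and deubiquitinases were measured in 65 genes, chosen by symbol: UBE2 for the conjugating enzymes, and USP, OTUB or OTUD for the enzymes that remove ubiquitin. They are 65 of the 14205 genes that had a row with a single gene symbol, and they hold 20 conjugating and 45 removing enzymes, the latter 38 USP and 7 OTU genes. The choice left out 1 UBE2 gene, and a gene with several rows was read from the brightest of them, by the mean of the 10 arrays. USP6NL is counted among the 45 by its symbol, although it encodes a GTPase-activating protein for RAB5 and is no deubiquitinase. UBE2K and USP6NL had 2 rows each.

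Expression was profiled in SH-SY5Y, an established human neuroblastoma line and a cloned subline of SK-N-SH, on 10 Affymetrix exon arrays. The control group held 5 arrays of untreated cells (controls 7, 11, 13, 17 and 19; the numbers are those of the titles), and the paraquat group held 5 arrays of the same line treated with paraquat, a redox-cycling herbicide that generates superoxide (paraquat 8, 12, 14, 18 and 20). Neither dose nor duration is given in the sources used here, and all cells were of this line, with no genetic change named in the labels. Values are log2 expression values from RMA, and array values below are given in the order of those sample numbers.

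Ubiquitin is activated by an E1 enzyme, handed to a conjugating enzyme (E2), and placed on a substrate with the help of a ligase (E3). Deubiquitinases of the USP and OTU families cut it off again, edit ubiquitin chains and return free ubiquitin. Some members of the UBE2 family carry ubiquitin-like proteins such as NEDD8 or ISG15 instead, and neurons depend on the system for protein quality control and for the turnover of damaged mitochondria.

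The labelled cell type was checked against marker genes. Of 6 measured markers of sympathetic neuroblasts, 5 lay above the median of all rows and 0 in the dimmest 20% of rows (means up to 4.18). The leukocyte markers PTPRC and CD3E lay in that dimmest part on both kinds of array, while 4 of 5 mesenchymal markers, among them COL3A1, lay above the median row. The third leukocyte marker measured, CD14, rose by 0.64 (adjusted p = 0.00552), and 0 of 3 glial and 0 of 4 epithelial markers passed (limma, with 0 and 1 at an unadjusted p under 0.05). After paraquat 5 of the 6 neuroblast markers and 1 of the 5 mesenchymal markers (LUM) fell. Over all 14205 genes with a single symbol, 4954 had an unadjusted p under 0.05 in limma. At an unadjusted p under 0.05, 4 of the 5 mesenchymal markers passed, and their mean level was 7.74 to 8.26 on the controls and 7.08 to 7.33 on the paraquat arrays, without overlap. The part of such shifts in the results below was not tested. The mean level of the neuroblast markers was 9.45 to 9.73 on the controls and 8.58 to 8.88 on the paraquat arrays. In bulk RNA, fewer cells that express a gene and less of its RNA per cell cannot be told apart.

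The comparison asks which of these enzymes differed between treated and untreated cells. Of the 65 genes, 14 changed, 4 upward and 10 downward (limma, adjusted p under 0.05 over all 22011 rows), which is 21.5%. Over all rows 20.0% changed, 8.51% upward and 11.5% downward. Over all genes with a single symbol the shares were 23.8%, 9.57% and 14.2%. The share among the enzymes lay near these background shares. Among the conjugating enzymes 0 of 20 rose and 4 fell, and among the removing enzymes 4 of 45 rose and 6 fell. At an unadjusted p under 0.05, limma gave 0 conjugating enzymes higher and 5 lower, and 5 removing enzymes higher and 9 lower. Over all 14205 genes with a single symbol, 2049 were higher and 2905 lower at that unadjusted p. The raised genes were USP53, USP36, OTUD4 and OTUD5. The largest decrease was in UBE2T, and the other 9 decreases that passed were of -0.60 to -0.33 (log2). The count of lowered genes was 6 without control 7, 13 or 17 and 5 without paraquat 12 or 18. In 10 of the 65 genes the ranges of the control and paraquat arrays were separate, against 16.2% of all rows and 19.9% of all genes.

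**Figure D1:**
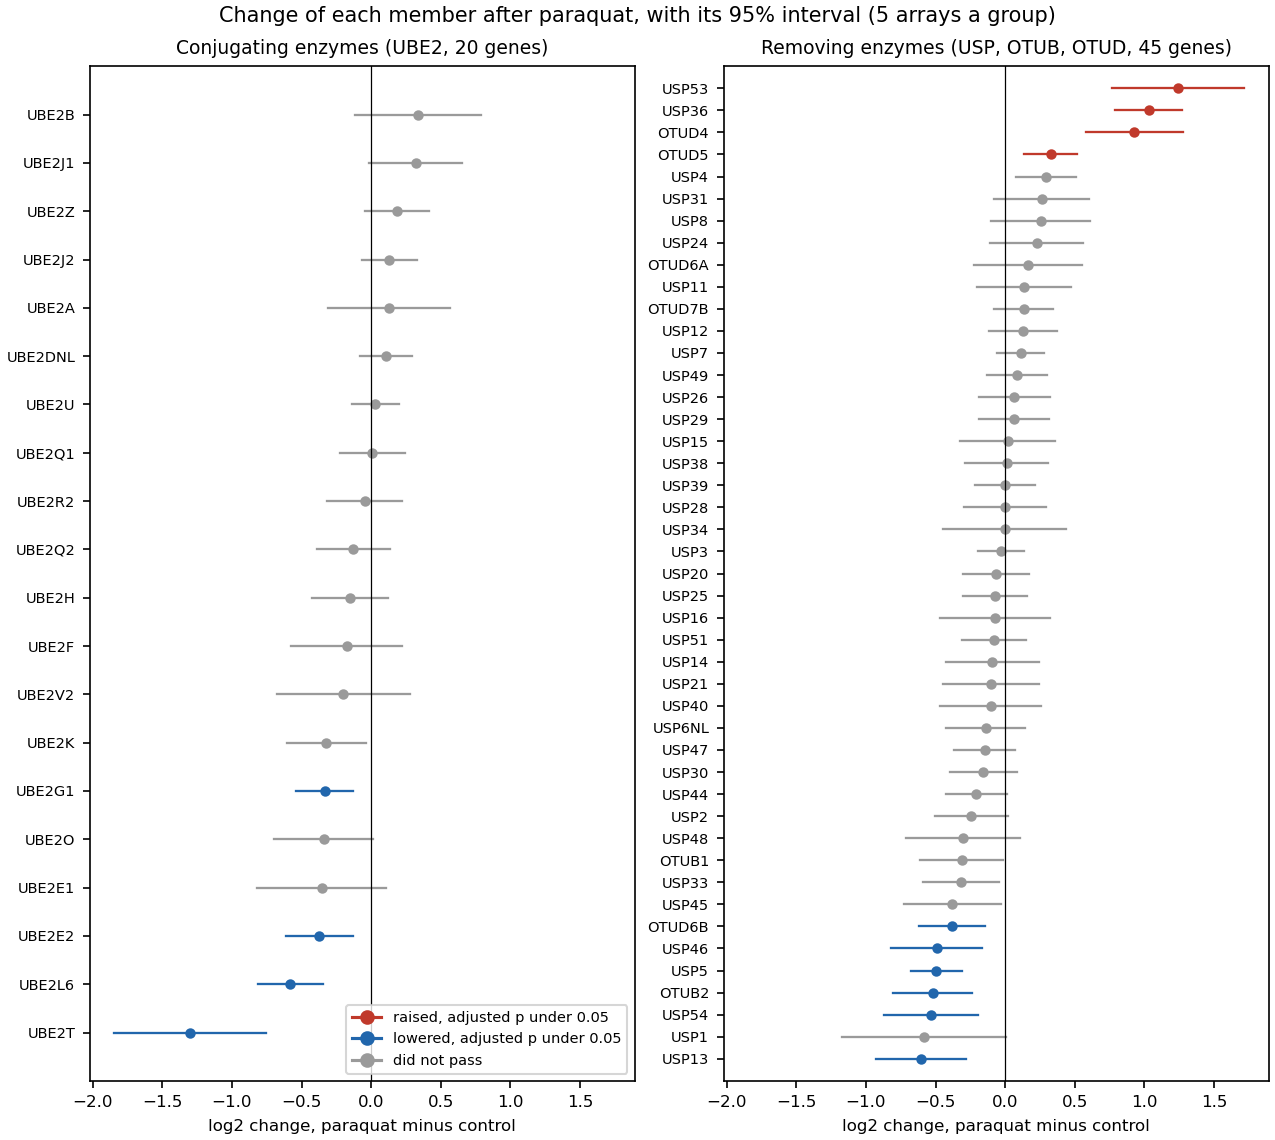
Log2 change of each of the 65 genes, paraquat minus control (points), with its 95% interval from limma (lines), for the 20 conjugating enzymes on the left and the 45 removing enzymes on the right. Red marks the 4 raised and blue the 10 lowered genes, and the other 51 in grey did not pass, with changes from -0.58 to 0.34.

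UBE2T showed the largest change of all 65 genes. It is the conjugating enzyme of the Fanconi anaemia pathway, which attaches a single ubiquitin to FANCD2 and FANCI during the repair of DNA crosslinks. UBE2T (transcript cluster 2451200) read 10.18, 11.11, 9.89, 10.17 and 10.01 on the controls and 9.16, 9.40, 9.19, 8.47 and 8.63 on the paraquat arrays. Every paraquat array lay below every control, and control 11 stood well above the other 4 controls. The level fell 2.46-fold, from 10.27 ± 0.48 to 8.97 ± 0.40 (SD, n = 5 each; log2 change -1.30 ± 0.25 SE, limma adjusted p = 0.00338). Without control 11 the change was -1.09 (adjusted p = 0.00227). FANCI, a substrate of UBE2T, also fell, by 0.49 ± 0.13 (adjusted p = 0.0226), a call that ended without paraquat 12, 18 or 20 (adjusted p up to 0.0619). USP1, the deubiquitinase that removes this ubiquitin again, did not pass: it read 8.62, 9.11, 8.33, 8.20 and 8.13 on the controls and 8.10, 8.15, 8.48, 7.03 and 7.72 on the paraquat arrays (change -0.58 ± 0.27, adjusted p = 0.166). Its groups overlapped, with paraquat 18 the lowest and control 11 the highest array.

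The promoters of UBE2T, USP36 and USP53, are shown because UBE2T fell most and USP36 and USP53 rose most among the 65 genes. The letters are the 250 bases before the gene's start in RefSeq (GRCh38.p14), 5′ to 3′ on the gene's strand. Capitals mark matches to the cell cycle homology region (TTTGAA), the CCAAT box (written ATTGG where it lies on the other strand) and the E-box (CACGTG). The windows are chr1:202341937-202342186 on the minus strand for UBE2T, chr17:78840815-78841064 on the minus strand for USP36 and chr4:119212463-119212712 on the plus strand for USP53. RefSeq lists 2 starts for USP36, of which this is the one with the lower coordinates.
UBE2T: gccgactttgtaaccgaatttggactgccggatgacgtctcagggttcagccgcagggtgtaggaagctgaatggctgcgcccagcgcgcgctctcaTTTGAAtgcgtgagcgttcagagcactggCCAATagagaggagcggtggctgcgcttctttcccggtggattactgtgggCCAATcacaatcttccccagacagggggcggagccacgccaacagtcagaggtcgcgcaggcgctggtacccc
USP36: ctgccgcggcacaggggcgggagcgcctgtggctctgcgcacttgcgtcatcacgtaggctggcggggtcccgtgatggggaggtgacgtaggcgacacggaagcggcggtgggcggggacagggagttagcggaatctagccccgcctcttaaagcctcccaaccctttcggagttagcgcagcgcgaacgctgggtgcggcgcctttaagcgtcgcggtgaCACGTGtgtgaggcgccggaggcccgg
USP53: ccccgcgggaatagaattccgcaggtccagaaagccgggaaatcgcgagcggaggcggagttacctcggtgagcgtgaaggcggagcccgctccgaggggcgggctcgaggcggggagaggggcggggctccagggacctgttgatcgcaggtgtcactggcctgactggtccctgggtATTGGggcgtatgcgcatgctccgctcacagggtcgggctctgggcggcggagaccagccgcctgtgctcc
The UBE2T window held TTTGAA once, 153 bases before the start, and CCAAT at 124 and 73 bases before it. TTTGAA was in 13.7% of the 27305 promoter windows of all genes and in 4 of the 53 windows that matched one of the 65 genes, and CCAAT was in 32.9% and in 17. The 12 genes without a window were OTUD6B, UBE2B, UBE2DNL, UBE2H, UBE2Q1, UBE2V2, USP24, USP26, USP31, USP44, USP48 and USP51. The USP36 window held CACGTG 27 bases before the start, a motif of 6.33% of all windows and 4 of the 53. The USP53 window held the CCAAT box on the other strand at 71 bases.

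Other motifs were searched on both strands in the same windows. TGANTCA (AP-1), TGACGTCA (cAMP response element), TGATGNAA (CEBP-ATF element) and the NF-kB site were in 6.74%, 1.74%, 3.26% and 1.74% of all windows and in 0 of the 53. TGACNNNGC (antioxidant response element) was in 11.0% of all windows and in 9 of the 53, including those of USP13 and USP54, which fell. The E2F forms TTTCCCGC and TTTGGCGC were in 1.40% and 0.549% of all windows and in 0 and 1 of the 53. TTCGAA, a second form of the cell cycle homology region, was in 1.19% and in 0, and GGGCGG (GC box, not capitalised above) was in 41.6% and in 39. Each motif was searched by itself, so that a stretch which fits several counts for each. These matches describe letters, and binding was not measured.

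The other conjugating enzymes that passed fell by less. UBE2L6, which carries the ubiquitin-like protein ISG15 and can also carry ubiquitin, is a gene of the interferon response. UBE2L6 (transcript cluster 3373962) read 9.70, 10.24, 9.84, 10.03 and 9.87 on the controls and 9.38, 9.34, 9.22, 9.47 and 9.38 on the paraquat arrays. The groups did not overlap, and the spread of the paraquat arrays was narrow. The level fell 1.49-fold, from 9.94 ± 0.21 to 9.36 ± 0.09 (log2 change -0.58 ± 0.11 SE, limma adjusted p = 0.00294). USP18, which removes ISG15, was not read from a row with a single symbol: a row assigned to USP18 and its pseudogene USP41P fell by 0.58 ± 0.16 (adjusted p = 0.0263). ISG15 itself did not pass, with a change of 0.21 ± 0.12 (limma adjusted p = 0.255). Neither did the E1 gene UBA7 (0.03, adjusted p = 0.858) or the ligase gene HERC5 (0.37, adjusted p = 0.0904).

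UBE2E2, a relative of the UBE2D enzymes that work with many RING ligases, and UBE2G1, which extends ubiquitin chains on substrates of cullin-RING ligases, had small decreases. UBE2E2 (transcript cluster 2613880) read 7.88, 7.73, 7.97, 7.98 and 7.68 on the controls and 7.66, 7.22, 7.61, 7.36 and 7.54 on the paraquat arrays. The groups were separated by a narrow gap, between control 19 and paraquat 8, at a change of -0.37 ± 0.11 (adjusted p = 0.0327). UBE2G1 (transcript cluster 3742067) read 9.14, 9.43, 9.25, 9.18 and 9.08 on the controls and 8.92, 8.83, 9.0, 8.70 and 8.95 on the paraquat arrays. It fell by 0.33 ± 0.09 (adjusted p = 0.0266), with every paraquat array below every control. Both calls depended on single arrays. The UBE2E2 call ended without control 7, 13 or 17 or paraquat 12, 18 or 20 (adjusted p 0.0591 to 0.0843), and the UBE2G1 call ended without control 13 or 17 or paraquat 12 or 18 (adjusted p 0.0515 to 0.0635).

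The remaining 16 conjugating enzymes did not pass. UBE2A and UBE2B, the human homologues of yeast RAD6, which ubiquitinate histone H2B and PCNA, had changes of 0.13 ± 0.20 (95% interval -0.31 to 0.57) and 0.34 ± 0.21 (-0.12 to 0.79). For both, control 11 was the highest control, at 8.25 and 9.22 against at most 7.52 and 8.54 on the other controls, and without it the changes were 0.30 and 0.50 (adjusted p = 0.218 and 0.0554). The enzymes anchored in the membrane of the endoplasmic reticulum, UBE2J1 and UBE2J2, which serve the degradation of misfolded proteins, had changes of 0.32 ± 0.15 (adjusted p = 0.182) and 0.13 ± 0.09 (adjusted p = 0.382).

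UBE2K, which builds degradation-signal chains, had a change of -0.32 ± 0.13 (adjusted p = 0.110), and its second row had 0.04 (adjusted p = 0.909). UBE2F, a NEDD8 carrier for cullin 5 ligases, had -0.17 ± 0.18, and UBE2V2, the catalytically inactive partner of UBE2N, had -0.20 ± 0.22. UBE2R2 of the cullin-RING ligases had -0.05 ± 0.12, UBE2Z, which is charged by the alternative E1 UBA6, had 0.18 ± 0.10, and UBE2H of the CTLH ligase had -0.15 ± 0.12. UBE2O, which acts as both E2 and E3, had -0.34 ± 0.16 and UBE2E1 had -0.36 ± 0.21, both with intervals that include 0. The changes of UBE2Q1, UBE2Q2 and UBE2DNL lay between -0.13 and 0.11. UBE2DNL is counted as a conjugating enzyme by its symbol alone and is in none of the role lists. UBE2U lay at 2.0 to 2.25 on all 10 arrays, within the dimmest 20% of rows. In the role lists, 1 of 3 measured enzymes of DNA damage and mitosis fell (UBE2T). So did 1 of 4 of the endoplasmic reticulum and its degradation pathway (UBE2G1). Of the UBE2D and UBE2E families 1 of 2 fell (UBE2E2), as did 1 of 2 carriers of ubiquitin-like proteins (UBE2L6). In the list of 7 other enzymes 0 passed, and UBE2V2, the 1 measured enzyme of lysine 63 chains, did not pass. Over all genes with a single symbol 14.2% fell, and each of these counts rests on 1 gene.

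Among the removing enzymes, 2 USP and 2 OTU genes rose. USP36 is a nucleolar deubiquitinase that acts on ribosome biogenesis and is known to stabilise MYC. USP36 (transcript cluster 3772581) read 7.82, 7.61, 8.08, 7.86 and 7.93 on the controls and 8.67, 8.77, 8.99, 9.04 and 8.98 on the paraquat arrays. The lowest paraquat array exceeded the highest control by more than the spread within either group. USP36 rose 2.04-fold, from 7.86 ± 0.17 to 8.89 ± 0.16 (log2 change 1.03 ± 0.11 SE, limma adjusted p = 7.57e-05), which was the smallest adjusted p of the 65 genes.

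USP53, a protein of tight junctions whose loss causes cholestasis and hearing loss, had the largest increase. The role lists used here place USP53 and USP54 among USP genes without protease activity, so both count as removing enzymes by symbol. USP53 (transcript cluster 2741236) read 8.49, 8.66, 8.19, 7.87 and 7.77 on the controls and 9.71, 9.65, 9.74, 8.86 and 9.25 on the paraquat arrays. The groups did not overlap, but the gap between control 11 and paraquat 18 was small. It rose 2.37-fold, from 8.20 ± 0.38 to 9.44 ± 0.38 (log2 change 1.24 ± 0.22, adjusted p = 0.00193). Its closest relative USP54 changed the other way. USP54 (transcript cluster 3294576) read 7.94, 7.51, 8.07, 8.15 and 7.70 on the controls and 7.54, 7.00, 7.61, 7.36 and 7.21 on the paraquat arrays, with overlapping groups (change -0.53 ± 0.15, adjusted p = 0.0309). The USP54 call ended without control 7, 13 or 17 or paraquat 12, 18 or 20 (adjusted p 0.0587 to 0.0790).

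OTUD4, which acts on ubiquitin chains and as a scaffold for other deubiquitinases in alkylation repair, also rose. OTUD4 (transcript cluster 2788195) read 7.58, 7.03, 7.55, 7.29 and 7.25 on the controls and 8.16, 8.07, 8.75, 7.99 and 8.36 on the paraquat arrays. Paraquat 14 was the highest array, and the groups did not overlap. The increase was 1.90-fold (log2 change 0.93 ± 0.16, adjusted p = 0.00173). OTUD5, also known as DUBA, a regulator of innate immune signalling, rose by a smaller amount. OTUD5 (transcript cluster 4007643) read 9.22, 9.39, 9.45, 9.25 and 9.06 on the controls and 9.58, 9.58, 9.63, 9.61 and 9.62 on the paraquat arrays. The paraquat arrays lay within a very narrow range, and the change was 0.33 ± 0.09 (adjusted p = 0.0207). That call ended without control 17 (adjusted p = 0.0519) and without paraquat 20 (adjusted p = 0.0516).

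**Figure D2:**
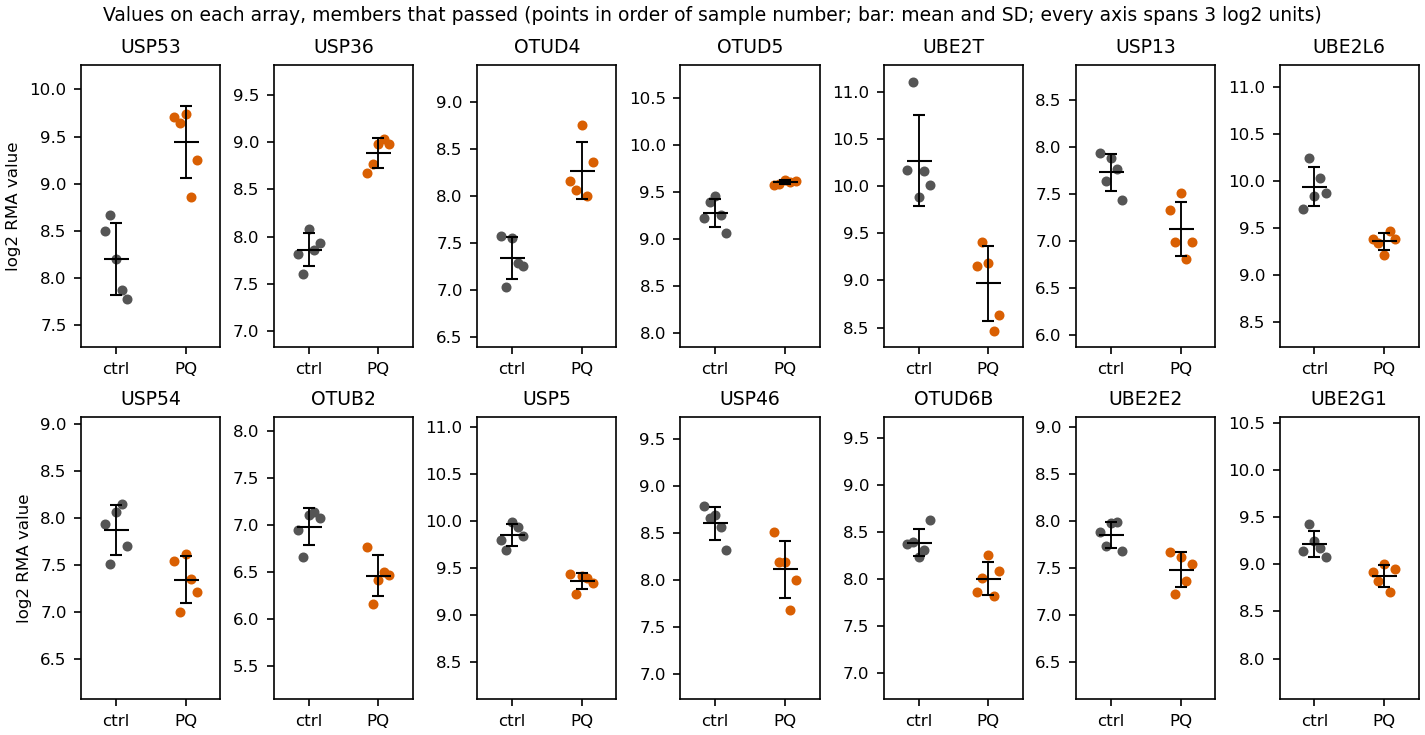
Log2 RMA values of the 14 genes that passed, on the 5 control arrays (grey) and the 5 paraquat arrays (orange), with the mean and SD of each group (bars) and axes of equal span. USP53, USP36, OTUD4 and OTUD5 lie higher on the paraquat arrays, and the other 10 genes lie lower, with UBE2T on control 11 at 11.11.

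Of the removing enzymes that fell, USP5 was the least variable. It disassembles free ubiquitin chains and so returns ubiquitin to the pool. USP5 (transcript cluster 3402899) read 9.80, 9.69, 9.99, 9.94 and 9.84 on the controls and 9.43, 9.22, 9.41, 9.39 and 9.34 on the paraquat arrays. The groups did not overlap, and it fell 1.41-fold, from 9.85 ± 0.12 to 9.36 ± 0.08 (log2 change -0.49 ± 0.08, adjusted p = 0.00170). USP13, a close paralogue of USP5, fell as well. USP13 (transcript cluster 2654091) read 7.93, 7.64, 7.88, 7.76 and 7.43 on the controls and 7.33, 6.99, 7.51, 6.80 and 6.99 on the paraquat arrays. Control 19 and paraquat 14 overlapped, and the change was -0.60 ± 0.15 (adjusted p = 0.0139).

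OTUB2, OTUD6B and USP46 fell with overlapping groups. OTUB2 (transcript cluster 3549517), a relative of OTUB1, read 6.94, 6.65, 7.10, 7.13 and 7.07 on the controls and 6.76, 6.15, 6.41, 6.49 and 6.47 on the paraquat arrays (change -0.52 ± 0.13, adjusted p = 0.0143). OTUD6B (transcript cluster 3106539), linked to protein synthesis and the proteasome, read 8.37, 8.39, 8.23, 8.30 and 8.62 on the controls and 7.86, 8.00, 8.26, 7.82 and 8.08 on the paraquat arrays (change -0.38 ± 0.11, adjusted p = 0.0286). USP46 (transcript cluster 2769063), which is activated by WDR48 and acts at glutamate receptors, read 8.79, 8.66, 8.69, 8.57 and 8.32 on the controls and 8.51, 8.19, 8.19, 7.68 and 8.00 on the paraquat arrays (change -0.49 ± 0.15, adjusted p = 0.0382). In each of these genes 1 paraquat array lay above the lowest control. The OTUB2 call held without any single array. The OTUD6B call ended without control 7 or 19 or paraquat 8, 12 or 18 (adjusted p 0.0514 to 0.0694), and the USP46 call held only without control 19 or paraquat 8, with adjusted p of 0.0558 to 0.0906 without each of the others. USP12, which shares the WDR48 cofactor with USP46 and USP1, had a change of 0.13 ± 0.11 (adjusted p = 0.511).

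By role, 1 of 14 measured USP genes of DNA damage, chromatin and the cell cycle fell (USP13) and 0 rose (limma, 2 lower and 0 higher at an unadjusted p under 0.05). Of 4 USP genes of the endosome and of 4 of innate immunity 0 passed (1 lower and 1 higher, respectively, at that unadjusted p). Of 7 OTU genes 2 rose and 2 fell (2 higher and 3 lower at that unadjusted p). Of 3 USP genes listed as without protease activity 1 rose (USP53) and 1 fell (USP54). Of 3 partners of WDR48 1 fell (USP46), as did 1 of 4 of the proteasome, endoplasmic reticulum degradation and mitochondria (USP5). Of 6 of growth signalling and other substrates 1 rose (USP36). In these last 4 lists the counts at that unadjusted p were the same. The shares over all genes with a single symbol were 9.57% raised and 14.2% lowered. At the unadjusted p, 2049 of these 14205 genes were higher and 2905 lower. The other 35 removing enzymes did not pass. USP7, which acts on MDM2 and p53, had a change of 0.11 ± 0.08 (95% interval -0.06 to 0.28). USP28, a partner of 53BP1 that also acts on MYC, had -0.00 ± 0.13 (-0.30 to 0.29). USP30, which sits on the outer mitochondrial membrane and opposes Parkin, had -0.16 ± 0.11 (-0.40 to 0.08). USP14, a deubiquitinase of the proteasome, had -0.09 ± 0.15 (-0.42 to 0.24). USP25, which spares substrates of endoplasmic reticulum degradation, had -0.07 ± 0.10 (-0.30 to 0.16). The histone H2A deubiquitinases USP3, USP16 and USP21 had changes of -0.03, -0.07 and -0.10.

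OTUB1, which restrains the E2 enzyme UBE2N without cutting ubiquitin, had a change of -0.31 ± 0.13 (adjusted p = 0.141), with paraquat 12 at 9.64 against 10.05 to 10.19 on the other paraquat arrays. OTUD7B, an inhibitor of NF-kB signalling, had 0.13 ± 0.10. USP8 and USP33, which act on receptors and their traffic, had 0.26 ± 0.16 and -0.32 ± 0.12 (adjusted p = 0.336 and 0.105), and USP20, the paralogue of USP33, had -0.06 ± 0.11. The paralogues USP4, USP11 and USP15 had changes of 0.29 ± 0.10, 0.14 ± 0.15 and 0.02 ± 0.16. USP4 read 9.59, 9.43, 9.42, 9.43 and 9.41 on the controls and 9.70, 9.62, 10.07, 9.65 and 9.73 on the paraquat arrays. Its groups did not overlap, yet it missed the threshold (adjusted p = 0.0562) and passed after median centring (0.34, adjusted p = 0.0185) and after quantile normalization (0.33, adjusted p = 0.0208). USP45, which acts on the repair nuclease subunit ERCC1, had -0.38 ± 0.16 (adjusted p = 0.125). USP39, a splicing factor without protease activity, had -0.00 ± 0.10, and USP34 of Wnt signalling had -0.00 ± 0.20. USP26 and USP29, known from testis, and OTUD6A lay in the dimmest 20% of rows on average, with control means of 2.14, 2.26 and 2.68. The changes of the remaining genes lay between -0.30 (USP48) and 0.26 (USP31).

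The conjugating and removing enzymes were then set side by side. The median log2 change was -0.14 for the 20 conjugating enzymes, -0.06 for the 45 removing enzymes and -0.00 for all 14205 genes. A change below 0 was seen in 12 of 20 and 27 of 45 genes, against 7198 of 14205. The difference between the medians moved with single arrays. On control 11, 13 of the 20 conjugating enzymes (65.0%) lay above all other controls, against 7 of the 45 removing enzymes (15.6%) and 32.7% of all genes. Without that array the medians were -0.03 for conjugating and -0.04 for removing enzymes, and with array weights they were -0.08 and -0.08. Without both control 11 and paraquat 12, the array of the next number, they were -0.08 and -0.01, with the conjugating enzymes again lower. What set these arrays apart was not tested.

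Each gene was also expressed as the deviation from its own mean over the 10 arrays. On control 11 the mean deviation was 0.35 for the conjugating and -0.03 for the removing enzymes, while on the other controls the conjugating enzymes had -0.04 to 0.04. UBE2T, UBE2V2, UBE2E1, UBE2A and UBE2B exceeded the mean of the other controls by 1.05, 0.91, 0.86, 0.83 and 0.83 on control 11. UBE2O went the other way, by -0.51. On the paraquat arrays the conjugating enzymes ranged from -0.27 (paraquat 18) to 0.10 (paraquat 14), and the removing enzymes from -0.17 (paraquat 12) to 0.19 (paraquat 14). The conjugating enzymes exceeded the removing enzymes by 0.38 on control 11 and by 0.16 on paraquat 12, while on the other 8 arrays the difference was -0.17 to 0.02. Of the 45 removing enzymes, 26 had their highest paraquat value on paraquat 14, against 29.3% of all genes.

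**Figure D3:**
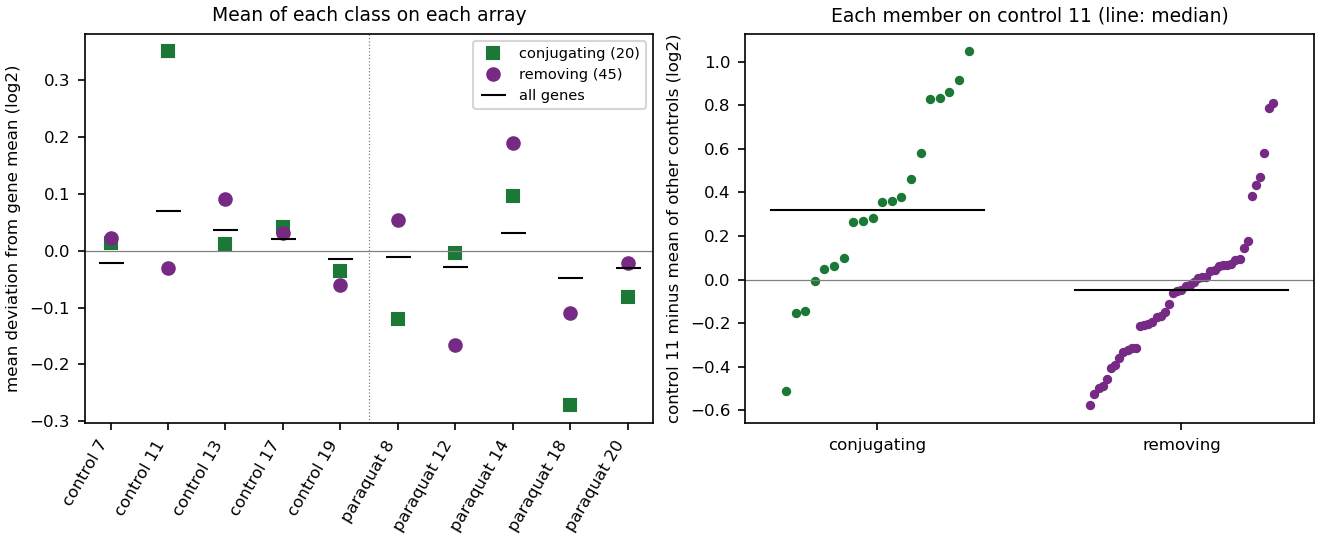
Left, mean deviation from each gene's own mean (log2) on each of the 10 arrays, for the 20 conjugating enzymes (squares), the 45 removing enzymes (circles) and all 14205 genes (dashes). Right, control 11 minus the mean of the other controls for each gene, sorted within its class, with a line at the median (0.32 for conjugating and -0.05 for removing enzymes).

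Other genes of the ubiquitin pathway were read from lists of 130 measured genes. For comparison, 9.57% of all genes with a single symbol rose and 14.2% fell. At an unadjusted p under 0.05, limma gave 2049 of these 14205 genes higher and 2905 lower. Among genes for ubiquitin and ubiquitin-like proteins, 2 of 9 rose and 0 fell: ATG12 (0.44) and UFM1 (0.38), both ubiquitin-like modifiers, of autophagy and of the endoplasmic reticulum (limma, with 2 higher and 3 lower at an unadjusted p under 0.05). The ATG12 call ended without control 7, 13 or 19 (adjusted p up to 0.0762). UBB, a polyubiquitin gene, had a change of -0.41 ± 0.17 (adjusted p = 0.137). Among E1 enzymes 2 of 8 fell and 0 rose (2 and 0 at an unadjusted p under 0.05 in limma). UBA1, the main ubiquitin E1, went from 10.35 ± 0.20 to 9.96 ± 0.14 (change -0.38, adjusted p = 0.0343), and SAE1, a subunit of the SUMO E1, fell by 0.31 (adjusted p = 0.0280). The UBA1 call held only without control 11 or paraquat 14 (adjusted p up to 0.0877 otherwise), and the SAE1 call ended without control 13 or 17 or paraquat 8, 12 or 20 (up to 0.0761). After median centring 0 of the 8 passed (adjusted p = 0.0615 for UBA1 and 0.0537 for SAE1). After quantile normalization SAE1 passed (adjusted p = 0.0292) and UBA1 did not (adjusted p = 0.0816). Among E2 genes with other names 2 of 8 fell and 0 rose, with the same counts at an unadjusted p under 0.05 in limma. They were AKTIP (-0.64), a variant without catalytic activity, and ATG10 (-0.63), the E2 for ATG12, whose call ended without control 7, 11 or 17 or paraquat 12, 18 or 20 (adjusted p up to 0.0895; without control 11 the change was -0.49).

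Deubiquitinases of other families had 4 raised and 3 lowered of 23, against 9.57% and 14.2% of all genes. At an unadjusted p under 0.05, limma gave 7 higher and 3 lower, against 2049 higher and 2905 lower of all 14205 genes. TNFAIP3, also known as A20, an inhibitor of NF-kB signalling, rose from 6.89 ± 0.13 to 8.62 ± 0.24 (change 1.73 ± 0.12, adjusted p = 4.12e-06), more than any of the 65 genes. JOSD1 of the Josephin family rose by 0.66. BRCC3 (-0.65), a deubiquitinase of the BRCA1-A complex, fell, and UCHL1, an abundant neuronal hydrolase, had a change of 0.14 ± 0.09 (adjusted p = 0.328). Among proteases of ubiquitin-like proteins 1 of 8 fell, ATG4C (-0.93), and 0 rose (1 higher and 3 lower at an unadjusted p under 0.05 in limma).

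The largest increase in these lists was in the ligase gene RNF19B, and the largest decreases were in CDC20 and FBXO5 (both -1.40). Of 30 HECT and RBR ligases 4 rose and 2 fell: RNF19B rose from 8.05 ± 0.31 to 9.87 ± 0.20 (change 1.82 ± 0.15, adjusted p = 1.61e-05), HERC3 fell by 0.84 and HECTD2 rose by 0.52, a call that ended without control 7 or 19 or paraquat 8 (adjusted p up to 0.0622). At an unadjusted p under 0.05, limma gave 8 of the 30 higher and 3 lower. Over all 14205 genes 2049 were higher and 2905 lower at that cutoff. After median centring 7 of the 30 rose, and after quantile normalization 8. Raised calls over all 22011 rows went from 1873 to 2241 with median centring and to 2127 with quantile normalization. Of 23 cullins and their adaptors 3 rose and 5 fell, with the same counts at an unadjusted p under 0.05 in limma. The shares over all genes were 9.57% and 14.2%. FBXW7, the receptor that targets MYC and cyclin E, rose by 1.42 ± 0.12 (adjusted p = 1.67e-05), while FBXO5, an inhibitor of the anaphase-promoting complex, fell by 1.40 ± 0.21 (adjusted p = 0.000681) and SKP2, a receptor of S-phase ligases, by 0.92 ± 0.14 (adjusted p = 0.000926). Of 12 genes of the anaphase-promoting complex 0 rose and 3 fell (0 and 5 at an unadjusted p under 0.05 in limma): the activator CDC20 (-1.40), ANAPC5 (-0.77) and CDC27 (-0.49; not passed without control 7 or 17 or paraquat 12, 18 or 20, adjusted p up to 0.0655). Of 9 cofactors of deubiquitinases, ADRM1, the proteasome receptor of UCHL5, rose by 0.44 and FANCI was the gene that fell. At an unadjusted p under 0.05, 3 of the 9 were higher and 2 lower in limma.

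**Figure D4:**
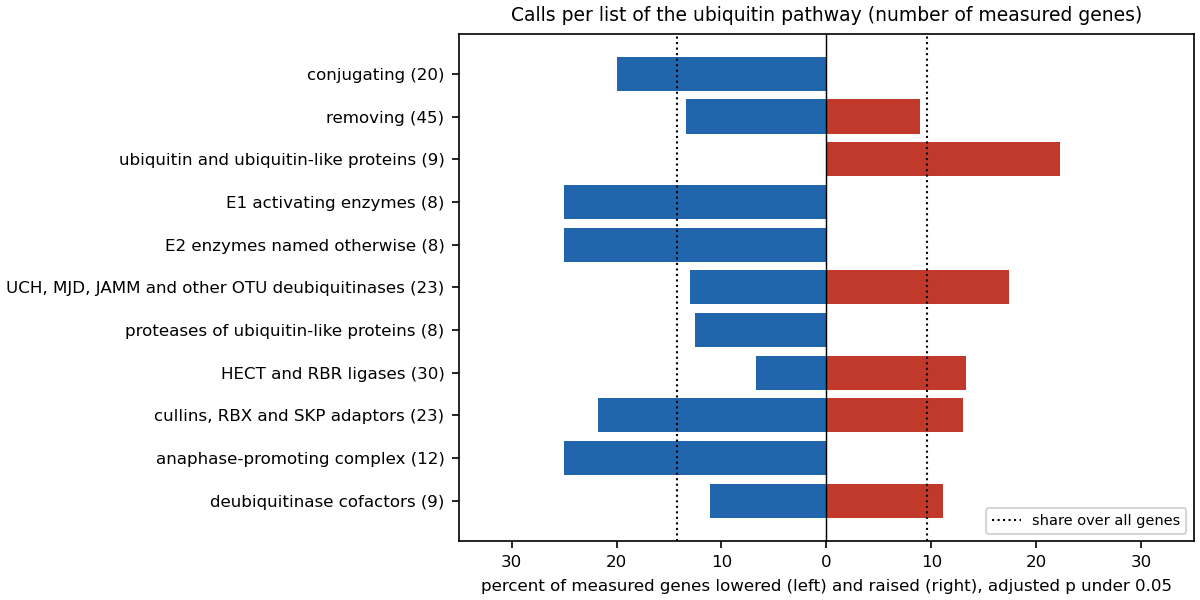
Percent of measured genes lowered (blue, left) and raised (red, right) at an adjusted p under 0.05 in the 2 enzyme classes and in 9 other lists of the ubiquitin pathway, with the number of measured genes in brackets. Dotted lines mark the shares over all genes, 14.2% lowered and 9.57% raised; several lists hold 8 or 9 genes, so that 1 gene moves a bar by more than 11 percentage points.

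Rows assigned to several genes were left out of the 65, and 16 of them named a gene of these families. Of these 16 rows 1 rose and 4 fell, against 8.51% raised and 11.5% lowered over all rows. A row for UBE2N, the E2 of chains that signal in DNA damage and NF-kB pathways, and its copy UBE2NL fell by 0.60 ± 0.14 (adjusted p = 0.0127). Rows for UBE2D4 with POLR2J4 (-0.56, adjusted p = 0.00144) and for UBE2V1 with PEDS1 (-0.41, adjusted p = 0.0298) also fell. Which of the genes a row measures was not determined. A dim row for USP50 and USP8 rose by 0.28 from a control mean of 2.86 (adjusted p = 0.0264). UBE2D1, UBE2D2, UBE2D3, UBE2L3, UBE2M, UBE2S, USP9X and USP22 were not analysed here.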

How the data were processed

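Total RNA of 10 samples was depleted of ribosomal RNA, labelled with biotin and read on Affymetrix Exon 1.0 ST arrays, per the labels. The deposited values are log2 expression values made by the authors with RMA, per the submitters' processing notes, a scale taken from their range (1.07 to 14.37). RMA corrects background, equalises array distributions and summarises probes, which shrinks changes of dim rows. The version, filters and build were not given in the sources used here. Array medians lay between 6.78 and 6.93. The platform annotation gave 16840 of 22011 rows a symbol, 14432 of them a single symbol, and 14404 of those matched RefSeq (GRCh38.p14) by gene identifier. Promoter sequences are from RefSeq, for 53 of the 65 genes; where a gene had several starts, that with the lowest coordinates was used.

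Groups were compared on the deposited values with limma 3.58.1 (R 4.3.3): a linear model with the group as its term, empirical Bayes moderation, two-sided tests and Benjamini-Hochberg adjustment over all 22011 rows. Errors of changes are moderated standard errors, with a median of 0.13 over all rows, and 10 arrays limit the precision. Separate cultures are not named in the labels; p-values therefore rest on array-to-array spread that may be technical. The fit was tested on simulated data. Other settings were median centring, quantile normalization, a filter on dim rows, array weights, an intensity trend, another row per gene, leaving out arrays, and, added after the data were seen, a block of neighbouring title numbers.

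The genes and lists were chosen with earlier results of these data known; they are described by counts and medians, without set tests. By the rule for named genes, every gene of the 65 that passed is named, together with the best-known gene of each role (USP1, USP7, USP8, USP14, USP28, USP30 and OTUB1 among those that did not pass) and up to 3 passing genes of each other list with the largest change. All others were named after their values were seen. Correlations of gene profiles over arrays are not given, since each group held 5 arrays.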

Additional observations from a re-analysis of the deposited data

Results flagged for a closer look

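Dixon's test of the gap between an extreme array and its neighbour, relative to the range of the group, was applied to 60 groups of 5 arrays (28 named genes and both class means). It marks about 1 in 20 groups by chance, and it marked 5. UBE2T on control 11 (11.11) and the mean deviation of the conjugating enzymes on control 11 (0.35) were high among the controls, and both concern the same array. OTUB1 on paraquat 12 (9.64) was low among the paraquat arrays. USP4 was high on control 7 (9.59) among the controls and on paraquat 14 (10.07) among the paraquat arrays.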

How the results depend on the processing

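In 18 other settings the 14 genes that passed kept their direction, and 8 of them (OTUB2, OTUD4, UBE2L6, UBE2T, USP13, USP36, USP5 and USP53) passed in every setting. The other 6 lost the call in 2 to 9 settings. With 1 array left out, 3 to 4 of the 65 genes rose and 5 to 10 fell: 0 conjugating enzymes rose and 2 to 4 fell, and 3 to 4 removing enzymes rose and 3 to 6 fell. The lowest count of lowered genes, 5, came without paraquat 12 and without paraquat 18, and without control 7, 13 or 17 it was 6. Calls over all rows moved as well. With 1 array left out, 15.4% (without paraquat 20) to 21.4% (without control 11) of all rows passed, against 20.0% with all 10 arrays. Without both control 11 and paraquat 12, 6 genes fell, 2 of them conjugating enzymes. Fewer samples were then compared, and 20.7% of all rows passed. The median change lay between -0.20 and -0.03 for conjugating and between -0.10 and -0.00 for removing enzymes with 1 array left out. After quantile normalization it was -0.09 and 0.00. With array weights OTUB1 (-0.33, adjusted p = 0.0456) and USP33 (-0.36, adjusted p = 0.0231) passed, as did USP33 without paraquat 14. Array weights also brought the share of all rows that passed to 28.1%, from 20.0%. USP4 passed in 4 settings. No label pairs the arrays, and the control and paraquat titles share no number. A replicate block of neighbouring title numbers (7 with 8, and so on) was added after the data were seen. Over all 22011 rows, deviations from the group means correlated at 0.09 to 0.46 within these pairs, and 3 of 5 controls correlated best with the neighbouring number. Under the block 4 genes rose and 12 fell, 5 of them conjugating enzymes: the 14 genes passed again, with OTUB1 (-0.31, adjusted p = 0.0464) and UBE2O (-0.34, adjusted p = 0.0401). Calls over all rows also increased under the block, to 24.4% from 20.0%. The absence of detection calls limits what can be said of the 4 genes in the dimmest 20% of rows.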
